A study of Mus musculus with 6 samples.

Results

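A cassette exon is an exon that can be left out of the messenger RNA while its neighbours are joined. The exons described here are cassette exons of 28 to 300 nt whose length is not a multiple of 3, so that including or skipping them moves the reading frame. They were chosen by type, by length and by having 20 or more estimated reads behind their inclusion value in every library, and their inclusion itself played no part in the choice. Of 99969 such exons in the files, 46017 had enough reads, in 8597 genes. They were drawn from 78852 cassette exon nodes of any length with 20 or more reads, where a node is the stretch between one splice site of a gene and the next. Inclusion is given as psi, a fraction from 0 (always skipped) to 1 (always included). Psi rests on counts of reads, and the intervals given for it cover counting error only.

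A frame shift usually brings the ribosome to a stop codon too early. Nonsense-mediated decay (NMD) degrades messenger RNAs whose stop codon lies well upstream of the last exon junction, so an exon whose inclusion or skipping creates such a stop can act as a switch on the amount of messenger RNA. Ptbp1 is an RNA-binding protein that recognises pyrimidine-rich RNA and mostly represses exons. A well-known target is a frame-shifting exon of its neuronal paralogue Ptbp2, whose skipping leads to decay of the Ptbp2 transcript.

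The 6 libraries came from a mouse aortic cell line (Fn AB+/-) labelled as endothelial, which carries a doxycycline-inducible SV40 gene for immortalisation. All cells had been expanded with doxycycline and were then plated without it. The lines were the parental line (WT), a CRISPR deletion of Ptbp1 that was grown from 1 single cell (KO), and the deletion line given a cDNA of human PTBP1 (Rescue). Each was sequenced without TNF and after TNF at 30 ng/mL, with 1 library per group and no replicates, so a property of the 1 clone and the loss of Ptbp1 cannot be told apart in KO against WT. The group given by the labels and the group read from the file names disagree for 4 of the 6 libraries. By file name, the library labelled KO is WT with TNF, that labelled Rescue is KO, that labelled WT_TNF is KO with TNF and that labelled KO_TNF is Rescue. For the remaining libraries, labelled WT and Rescue_TNF, both sources give 1 group. The file names write basal where the labels write WT, and basal is read here as WT without being stated. Groups below are those read from the file names, and the results with the labels' groups stand beside them.

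The total of expected counts per library ranged from 19598773 to 21626838, and the median number of reads behind psi of these exons from 133 to 150. Ptbp2 and TNF targets were high in the libraries that the file names call KO and TNF. Ptbp2 was at 38.2 and 37.8 CPM (counts per library size, scaled by TMM) in WT without and with TNF, 218 and 192 in KO and 67.6 and 76.5 in Rescue. Vcam1, a leukocyte adhesion molecule that TNF turns on, was at 114, 46.5 and 67.0 CPM without TNF and at 1451, 217 and 871 with it, in WT, KO and Rescue. In such bulk libraries fewer cells of a type and less RNA per cell cannot be told apart. Mouse Ptbp1 RNA was not lower in KO. It stood at 338 and 423 CPM in WT, 387 and 424 in KO and 173 and 186 in Rescue, so the level of this RNA does not mark the KO. The check of cell type found 9 of 16 endothelial markers at 1 CPM or more in any library, Eng and Cav1 among them, and 4 in every library. Pecam1, Tie1, Emcn, Esam, Cldn5, Sox17 and Nos3 were below 1 CPM in every library. Of 16 smooth muscle and fibroblast markers, 16 reached 1 CPM in any library and 11 in every library. The summed level of 16 smooth muscle and fibroblast markers ranged from 11392 to 27854 CPM, with Col1a1 and Col1a2 the most abundant. Pdgfra (463 and 393 CPM in WT, 63.1 to 74.2 in the other 4 libraries) and Thy1 (62.6 and 35.4 in WT, at most 0.195 elsewhere) set WT apart from both other lines, and their part in the differences between lines was not tested.

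Some of the exons that carry the main differences are printed here, 5′ to 3′, from the GENCODE release M21 transcripts on GRCm38. The first set shows exons of genes in which skipping the exon gives a premature stop. Capitals mark TCTT, a short pyrimidine motif of the kind Ptbp1 binds, searched on the transcribed strand only.
Ptbp2 node 28, chr3:119724612-119724645, minus strand: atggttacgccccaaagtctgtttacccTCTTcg
Ptbp3 node 12, chr4:59546149-59546182, minus strand: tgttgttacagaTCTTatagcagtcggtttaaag
Gabbr1 node 31, chr17:37067214-37067364, plus strand: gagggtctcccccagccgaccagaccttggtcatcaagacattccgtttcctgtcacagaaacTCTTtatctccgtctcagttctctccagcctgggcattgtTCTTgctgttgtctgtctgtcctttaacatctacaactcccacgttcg
Phkg2 node 14, chr7:127577975-127578029, plus strand: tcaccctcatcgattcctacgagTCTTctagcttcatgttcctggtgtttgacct
Dlg4 node 52, chr11:70043658-70043767, plus strand: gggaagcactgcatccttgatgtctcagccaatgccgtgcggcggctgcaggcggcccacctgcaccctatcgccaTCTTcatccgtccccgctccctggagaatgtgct
Mlkl node 12, chr8:111315493-111315542, minus strand: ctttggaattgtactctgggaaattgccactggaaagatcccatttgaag
Psi of the first 5 was higher in both KO libraries than in both WT libraries, and that of Mlkl, which holds no TCTT, was lower. These exons were picked for display, and those of Clcn6, Tvp23a, Tmem38a and Nhlrc3, of the same class, are not printed. Whether the unprinted exons hold TCTT is not reported here, so the printed set does not show that TCTT goes with direction. TCTT was found in 45.7% of all exons higher in KO in both pairs, 24.7% of those lower and 37.4% of all frame-shifting exons with a sequence. The exons of Ptbp2 and Ptbp3 have the same length of 34 nt but only 5 identical positions. Among the 80 exons of this length with a sequence, 15% held TCTT, and the share was 45.7% among the 411 exons as long as that of Gabbr1. The share was 20.97% among the 267 as long as that of Phkg2 and 39.4% among the 545 as long as that of Dlg4. Among the 238 as long as that of Mlkl it was 19.3%, so most exons of that length held no TCTT.

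The second set shows 2 pairs of exons used in place of each other, with capitals for bases that are identical at the same position of the other exon of the pair.
Tpm2 node 13, chr4:43519003-43519078, minus strand: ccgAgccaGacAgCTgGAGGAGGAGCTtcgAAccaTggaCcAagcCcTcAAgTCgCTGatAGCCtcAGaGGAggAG
Tpm2 node 15, chr4:43518644-43518719, minus strand: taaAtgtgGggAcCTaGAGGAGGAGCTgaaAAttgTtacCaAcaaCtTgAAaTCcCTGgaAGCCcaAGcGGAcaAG
Pkm node 31, chr9:59675029-59675195, plus strand: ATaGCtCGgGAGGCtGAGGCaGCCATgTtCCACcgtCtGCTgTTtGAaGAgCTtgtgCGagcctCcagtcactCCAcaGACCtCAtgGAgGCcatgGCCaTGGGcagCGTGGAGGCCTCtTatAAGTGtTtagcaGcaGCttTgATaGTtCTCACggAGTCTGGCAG
Pkm node 33, chr9:59675568-59675734, plus strand: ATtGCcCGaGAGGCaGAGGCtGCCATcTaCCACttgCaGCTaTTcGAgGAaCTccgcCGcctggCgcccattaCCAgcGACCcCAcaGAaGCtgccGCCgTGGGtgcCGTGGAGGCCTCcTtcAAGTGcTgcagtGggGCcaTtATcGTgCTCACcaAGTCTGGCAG
The Tpm2 exons share 41 of 76 bases and the Pkm exons 103 of 167. Either exon of a pair shifts the frame if added to or removed from a transcript alone, and the swap keeps it, since both exons of a pair have the same length.

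The third set shows exons that bring a premature stop when they are included, printed up to that stop, which is in capitals.
Slc38a6 node 9, chr12:73293699-73293799, plus strand: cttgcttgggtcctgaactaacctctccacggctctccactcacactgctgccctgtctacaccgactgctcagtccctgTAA
Fmnl3 node 9, chr15:99329094-99329176, minus strand: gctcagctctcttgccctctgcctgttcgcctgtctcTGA
Wsb1 node 11, chr11:79243400-79243575, minus strand: gtggtggcagcaatattggtgTGA
In the annotated transcripts these stops lie 998, 2533 and 547 nt upstream of the last exon junction. Coordinates give the whole exon.

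Frame-shifting exons were mostly used in all transcripts. Psi was 0.95 or more in every library for 41575 of the 46017 exons (90.3%) and 0.05 or less in every library for 871. The other 3571 (7.76%) were used in part, meaning that psi lay between 0.05 and 0.95 in at least 1 library. Of 30050 exons of 28 to 300 nt that keep the frame, 2807 (9.34%) were used in part. The requirement of 20 reads bears on this share. Among the 1968 exons just inside it, with 20 to 25 reads in their poorest library, 18.5% were used in part, and among the 2096 just outside it, with 15 to 20, the share was 21.1%. Median length was 116 nt, and 45871 of the exons were whole internal exons of an annotated transcript.

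Each exon was placed in a class by inserting it into, or removing it from, an annotated coding transcript and reading on to the next stop, which was called premature if it lay more than 50 nt upstream of the last junction. Skipping gave a premature stop for 35453 exons, of which 2028 were used in part. Inclusion gave one for 1089, of which 403 were used in part. In 5784 exons neither form had such a stop, and 74 had a premature stop in both forms. Of the others, 788 lay in a 5′ UTR, 1178 held the start codon and 20 lay in a 3′ UTR. A further 140 had an annotated partner exon used in their place. The last 1491 had no class, being no whole internal exon or having no suitable coding transcript that held or skipped them. These are computed effects on annotated transcripts, and decay itself was not measured.

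In KO against WT, exons of Tpm1, Tpm2, Tpm3 and Pkm differed with 826 or more reads behind every value, and exons of Pbrm1, Gabbr1, Slc38a6, Phkg2 and Magi3 had the largest rises in psi among exons called by either form of the test below. Psi was tested with limma on the log2 odds over 18675 cassette exon nodes, 10437 of them frame-shifting, in a model of line and TNF. With 1 library per group this test sets a difference between lines against how unequal it was without and with TNF, not against a spread between cultures. It called 3 exons higher (0.0803% of all nodes tested were called higher) and 3 lower (0.0375%), and 667 had an unadjusted p under 0.05. With an offset of 0.05 in place of 0.01 in the odds it called 0, with adjusted p of 0.0733 for both Pkm exons and 0.0836 and 0.0872 for those of Tpm2, and with untransformed psi it called 68. Over the nodes used in part alone, a choice made after the data were seen, the same test called 48 exons higher and 47 lower. That is 1.34% and 1.32% of the 3571 frame-shifting exons tested, beside 2.81% and 1.9% of all 6732 nodes tested. Without any 1 of the 6 libraries, both forms of the test called 0 exons. Verbs of rising and falling below, and adjusted p of exons, refer to this second form unless the first is named. In KO against WT the first form called only exons of Tpm1, Tpm2, Tpm3 and Pkm. The second form had a prior of 31.4 degrees of freedom, beside 2.52 in the first, and each had 2 residual ones.

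A description without a test counts exons whose psi differed by 0.1 or more in the same direction in both pairs of libraries (KO and WT without TNF, KO and WT with TNF). By this count 71 exons were higher in KO (0.325% of all 78852 nodes were higher) and 87 were lower (0.288%), in 139 genes, and 54 differed by 0.1 or more in opposite directions in the 2 pairs. They made up 4.42% of the frame-shifting exons used in part, and the same count made up 9.73% of the frame-keeping exons used in part, a difference that was not tested. The difference was 0.2 or more in 25 exons higher and 26 lower. Of the 158 exons, 82 were also called by limma over nodes used in part, 78 had 50 or more reads in every library and 80 had fewer in at least 1.

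**Figure D1:**
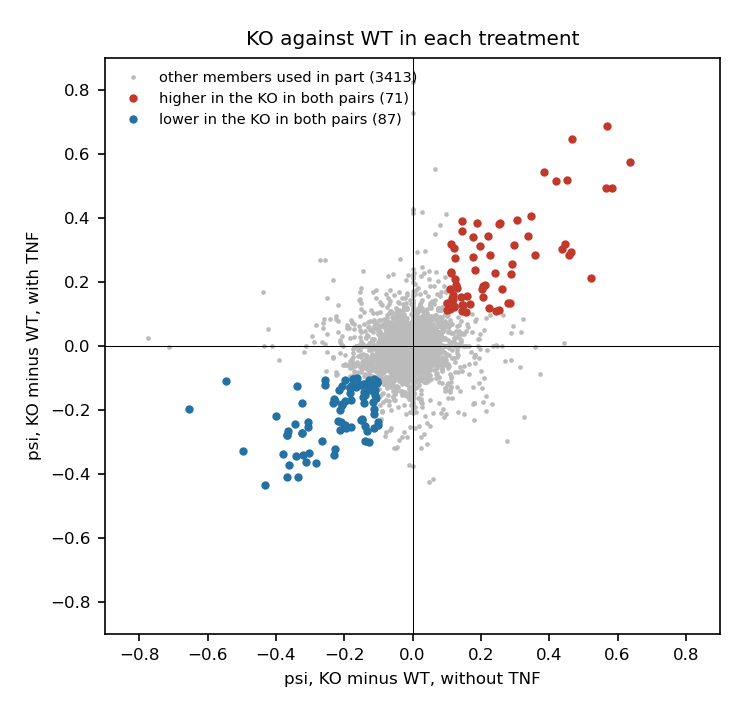
Difference in psi between KO and WT for each frame-shifting exon used in part, without TNF on the x axis and with TNF on the y axis. Red points are the 71 exons higher by 0.1 or more in both pairs, blue points the 87 lower, and grey points the rest, which centre on 0.

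Psi in the files is computed over sets of splice paths, and these sets were not the same in every library. A share from junction reads alone was therefore also computed, after the data were seen: the mean of the reads into and out of the exon, over that mean plus the reads that jump over it. Of the 71 exons higher in KO, 57 differed by 0.1 or more in the same direction in both pairs by this share, and 68 of the 87 lower ones did. Where psi and the junction share of an exon named below lay more than 0.2 apart in a library, both are given for WT and KO. For Rescue the junction share is given for some of these exons only.

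**Figure D2:**
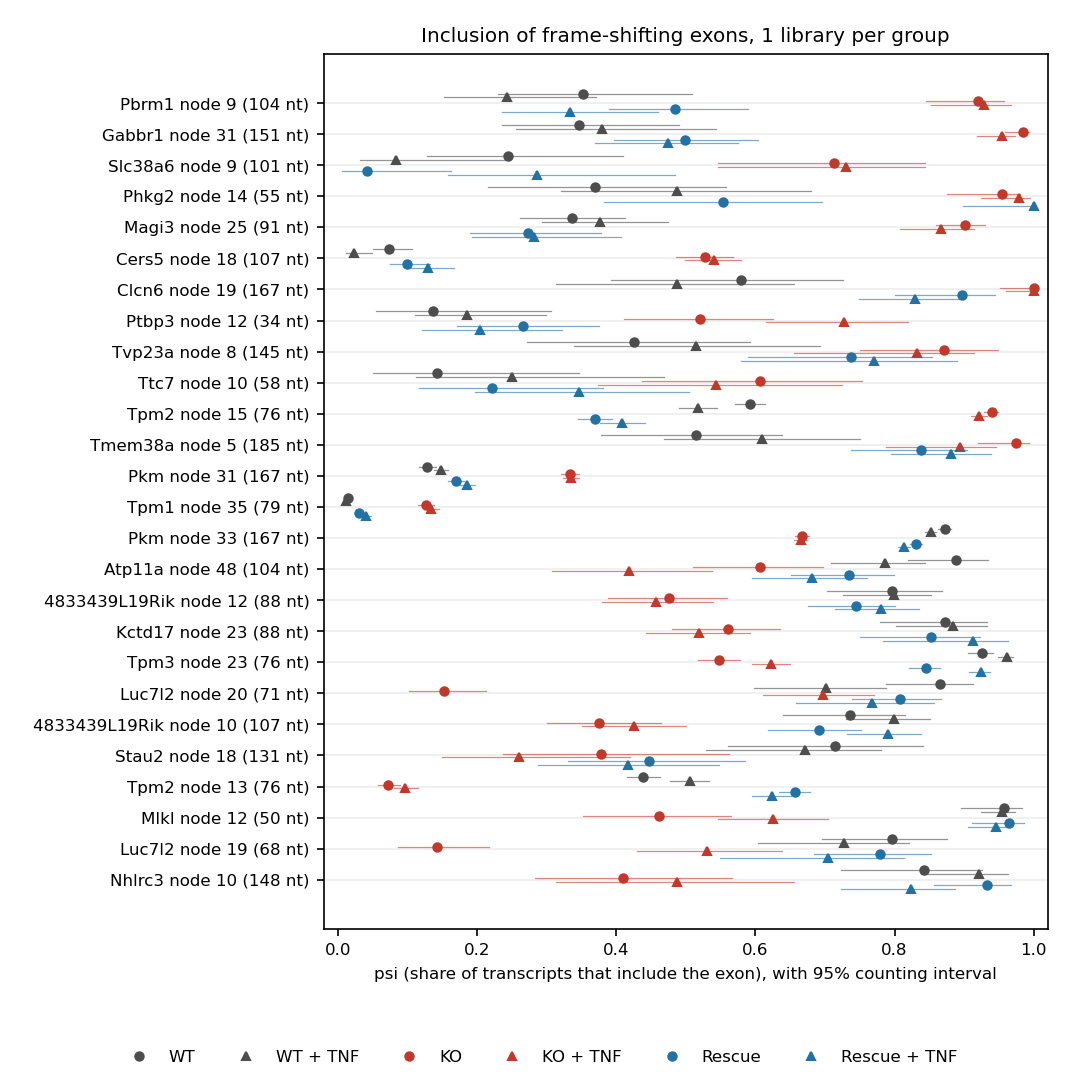
Psi of the exons called in KO against WT with the largest differences, for each of the 6 libraries, with 95% Wilson intervals for counting error. KO libraries (red) lie to the right of WT in the upper rows, such as Gabbr1 at 0.984 and 0.954. They lie to the left in most lower rows, such as Nhlrc3 at 0.410 and 0.487. Rescue lies beside or beyond KO in some rows, such as Phkg2 with TNF at 1.000. The low point of Luc7l2 in KO without TNF is not found in its junction reads.

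The exons swapped for a partner held 5 of the 6 calls of the first form of the test, and 7 were higher and 6 lower in KO in both pairs. Tpm2 encodes beta-tropomyosin, an actin-coating protein, and its downstream exon of the pair (node 15) is the skeletal muscle type. Psi of Tpm2 node 15 was 0.592 and 0.517 in WT without and with TNF, 0.940 and 0.922 in KO and 0.369 and 0.409 in Rescue. Both KO libraries were far above the other 4, with 913 to 2110 reads behind each value. In the first form of the test the exon rose by 3.27 ± 0.19 (SE) on the log2 odds scale (limma adjusted p = 0.0323). Its partner, node 13, mirrored it at 0.439 and 0.506 in WT, 0.0718 and 0.0961 in KO and 0.657 and 0.624 in Rescue, and fell (limma adjusted p = 0.0324). The Tpm2 gene rose as well, by 1.09 ± 0.17 in log2 (edgeR adjusted p = 0.0118).

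Pkm encodes pyruvate kinase, and its 2 alternative exons define the M1 form (node 31) and the M2 form (node 33), the latter a textbook product of repression by Ptbp1. Psi of the M1 exon was 0.128 and 0.148 in WT, 0.333 and 0.335 in KO and 0.169 and 0.186 in Rescue. The M2 exon was at 0.872 and 0.852, 0.667 and 0.665, and 0.831 and 0.814 in the same order. KO thus had more of the M1 exon than either other line, while the M2 exon stayed the major form in all 6 libraries. Node 31 rose by 1.59 ± 0.06 on the log2 odds scale and node 33 fell by 1.59 (limma adjusted p = 0.0259 for each in the first form of the test). The level of Pkm did not pass the gene test (log2 change 0.30 ± 0.09, edgeR adjusted p = 0.0632).

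Tpm1 and Tpm3 encode other tropomyosins. A 79-nt exon of Tpm1 (node 35) was nearly absent in WT (0.0146 and 0.0118) and reached 0.126 and 0.134 in KO, with 0.0296 and 0.0399 in Rescue (limma adjusted p = 0.0411 in the first form). In Tpm3 the 76-nt exon of node 23 was at 0.926 and 0.961 in WT and 0.845 and 0.924 in Rescue. In KO it was at 0.548 and 0.622, below the other 4 libraries, and it fell (limma adjusted p = 0.0323 in the first form). Junction reads put the Tpm3 exon lower in every library, at 0.757 and 0.851 in WT and 0.235 and 0.287 in KO, with the same direction. Tpm3 node 23 matches Tpm2 node 13 at 47 of 76 bases and Tpm2 node 15 at 38. Plpp1, a lipid phosphatase of the cell surface, also has a pair of alternative exons: the upstream exon of 155 nt was at 0.312 and 0.325 in WT, 0.459 and 0.453 in KO and 0.376 and 0.378 in Rescue, and its partner mirrored it. Kctd17 node 23, also with an annotated partner, was called lower by psi, at 0.561 and 0.519 in KO against 0.872 and 0.884 in WT, but junction reads gave 0.182 and 0.202 against 0.138 and 0.125, the opposite direction.

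**Figure D3:**
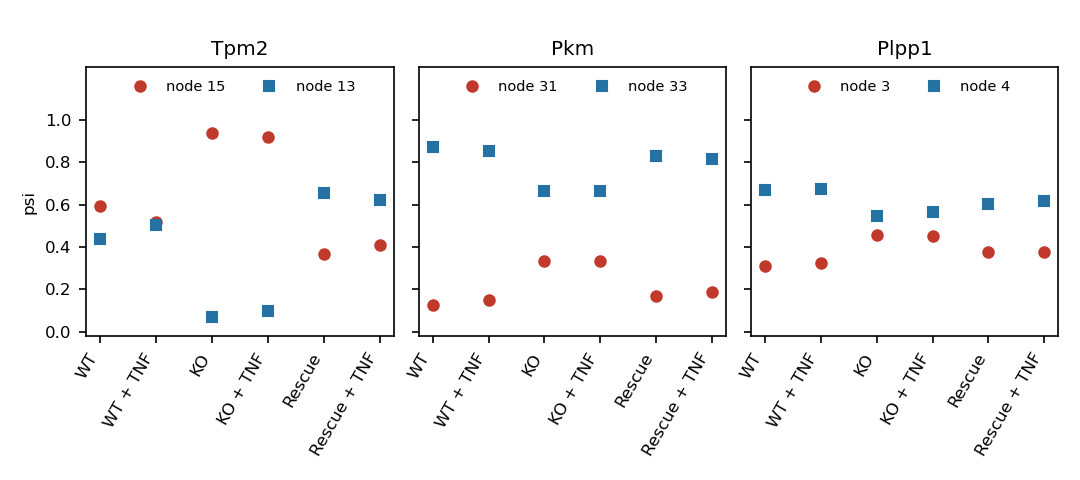
Psi of both exons of 3 pairs that replace each other, in the 6 libraries named on the x axis. In Tpm2 the exons part widely in KO (0.940 and 0.0718 without TNF), in Pkm they approach each other (0.333 and 0.667), and in Plpp1 likewise (0.459 and 0.545).

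Among exons whose skipping gives a premature stop, 19 were higher and 26 lower in KO in both pairs. The 34-nt exon of Ptbp2 was at 0.562 and 0.698 in WT, 1.000 and 1.000 in KO and 0.891 and 0.942 in Rescue. In WT, 16 and 13 junction reads jumped over it, against 23 and 29 reads into it. In KO only 4 and 4 jumped over it, against 240 and 202 into it, so the exon was included almost completely there. Ptbp2 node 28 rose (limma adjusted p = 0.00433 over nodes used in part, 0.0822 over all nodes), and the gene rose by 2.43 ± 0.11 in log2 (edgeR adjusted p = 0.00129). The 34-nt exon of Ptbp3, the third paralogue, was at 0.137 and 0.185 in WT, 0.521 and 0.728 in KO and 0.266 and 0.204 in Rescue, and it rose (limma adjusted p = 0.000248). The level of Ptbp3 changed by 0.22 ± 0.17 (edgeR adjusted p = 0.361). Ptbp1's own 34-nt exon had no measured cassette node.

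Gabbr1, a subunit of the GABA-B receptor, had the largest rise of this class. Its 151-nt exon was at 0.347 and 0.379 in WT, 0.984 and 0.954 in KO and 0.499 and 0.475 in Rescue. KO thus did not overlap with the other lines (limma adjusted p = 1.31e-09 over nodes used in part, and not called over all nodes). Gabbr1 itself stood at 35.2 and 29.3 CPM in WT, 82.2 and 79.8 in KO and 45.0 and 47.6 in Rescue, a log2 change of 1.33 ± 0.11 in KO against WT (edgeR adjusted p = 0.0031). The 55-nt exon of Phkg2, a catalytic subunit of phosphorylase kinase, rose from 0.369 and 0.488 to 0.954 and 0.979 (limma adjusted p = 0.0159), and the gene rose by 1.24 ± 0.16. In Rescue this exon was at 0.553 without TNF and at 1.000 with TNF, on 35 and 34 reads, so that 1 Rescue library lay near WT and the other with KO.

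Clcn6, a chloride and proton exchanger of late endosomes, and Dlg4, the postsynaptic scaffold PSD-95, also had an exon and a gene level higher in KO than in WT. The 167-nt exon of Clcn6 was at 0.579 and 0.487 in WT, 1.000 and 1.000 in KO and 0.897 and 0.830 in Rescue. Both Rescue values lay nearer KO than WT. The Clcn6 exon rose (limma adjusted p = 0.00165) and the gene rose by 0.96 ± 0.08. Dlg4 node 52, long known as an exon that Ptbp1 represses, was at 0.333 and 0.338 in WT, 0.670 and 0.682 in KO and 0.505 and 0.462 in Rescue, with Rescue between the other lines. The exon rose (limma adjusted p = 4.93e-06), and the gene rose by 0.37 ± 0.08 (edgeR adjusted p = 0.0274). Exons of Tvp23a (mean difference 0.382) and Tmem38a (0.371) rose too, and their genes did not pass the gene test. That of Tvp23a was at 0.425 and 0.515 in WT, 0.871 and 0.833 in KO and 0.738 and 0.770 in Rescue. That of Tmem38a was at 0.515 and 0.610 in WT, 0.974 and 0.894 in KO and 0.838 and 0.881 in Rescue. In both, Rescue lay nearer KO than WT.

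In the opposite direction, exons of Nhlrc3 and Mlkl fell, which by the computed frames leaves more transcripts with a premature stop. Mlkl, the effector of necroptosis, had psi 0.958 and 0.955 in WT, 0.461 and 0.625 in KO and 0.965 and 0.946 in Rescue. WT and Rescue were nearly alike, and both KO libraries lay below them (limma adjusted p = 8.58e-06). Mlkl fell by 0.73 in log2 (edgeR adjusted p = 0.0359), from 33.2 and 90.1 CPM in WT to 26.0 and 42.7 in KO. In Nhlrc3 the 148-nt exon was at 0.843 and 0.922 in WT, 0.410 and 0.487 in KO and 0.933 and 0.824 in Rescue. It fell (limma adjusted p = 0.000953), as did the gene, by 0.81 in log2 to a level of 4.57 and 4.30 CPM.

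Among exons whose inclusion gives a premature stop, 12 were higher and 11 lower in KO in both pairs. The 101-nt exon of Slc38a6, an amino acid transporter, was at 0.245 and 0.083 in WT, 0.713 and 0.730 in KO and 0.042 and 0.286 in Rescue, on 27 to 33 reads (limma adjusted p = 0.00898). Junction reads gave 0.245 and 0.455 in WT, 0.778 and 0.730 in KO and 0.216 and 0.286 in Rescue, so WT with TNF is higher by that measure but still below KO. Slc38a6 fell by 0.84 in log2 (edgeR adjusted p = 0.0172), from 10.97 and 8.07 CPM to 5.51 and 5.01. An 83-nt exon of Fmnl3, a formin that builds actin filaments, named after its values were seen, was at 0 in both WT libraries, 0.298 and 0.315 in KO and 0 and 0.069 in Rescue. The exon rose (limma adjusted p = 0.0190) and the gene fell by 0.61 (edgeR adjusted p = 0.0114). The exon counted as used in part only through KO and Rescue with TNF, so its entry to the test drew on the tested values.

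Ttc7 went the other way from Slc38a6 in its level. Its 58-nt exon rose from 0.143 and 0.250 to 0.606 and 0.543 on 20 to 36 reads, and the gene rose by 0.62 ± 0.14. At most 1 junction read per library entered this exon at its annotated start, while 20 and 18 reads left its end in KO and 3 and 5 in WT. The stop computed for Ttc7 assumes splicing at both ends, which almost no reads showed at the start. Ttc7 is still counted in this class below. Wsb1, an adaptor of a ubiquitin ligase, had its 176-nt exon at 0.873 and 0.655 in WT, 0.654 and 0.419 in KO and 0.877 and 0.692 in Rescue. The exon fell (limma adjusted p = 2.58e-05) and the gene fell by 0.32 in log2 (edgeR adjusted p = 0.0275). Junction reads put the Wsb1 exon lower, at 0.704 and 0.342 in WT and 0.384 and 0.178 in KO. Without TNF, 146 reads entered the Wsb1 exon and 11 left it at its annotated end in WT, and 68 and 8 in KO. The computed stop assumes splicing at both ends, which few reads showed at the second. In Luc7l2, a U1 snRNP-associated splicing factor, the exons of 68 nt (node 19) and 71 nt (node 20) were called lower. The psi fall of node 20 rests on 1 library, KO without TNF at 0.152, since KO with TNF was at 0.697 beside 0.701 in WT with TNF. Node 19 was at 0.142 in KO without TNF and 0.530 in KO with TNF, and at 0.705 to 0.797 elsewhere. Junction reads of node 19 gave 0.728 in KO without TNF, beside 0.765 in WT. With TNF they gave 0.527 in KO and 0.722 in WT, so by that measure node 19 was clearly lower only with TNF. In KO without TNF alone the paths behind psi reached node 32, and in the other 5 libraries they ended at node 23.

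Exons upstream of or at the start codon moved as well. Pbrm1, a subunit of the PBAF chromatin remodeller, had a 104-nt 5′ UTR exon at 0.352 and 0.243 in WT, 0.920 and 0.928 in KO and 0.484 and 0.334 in Rescue, the largest rise of all exons called. It rose (limma adjusted p = 4.37e-08) with no change of the gene (log2 0.00 ± 0.07). More junction reads entered the 104-nt exon than left it, 59 and 6 in KO and 13 and 4 in WT, both without TNF. The annotated partner of this exon, of 140 nt, was at 0.744 and 0.677 in KO against 0.777 and 0.681 in WT. Stau2, which transports RNA along microtubules, had its 131-nt exon with the start codon at 0.714 and 0.672 in WT and 0.378 and 0.260 in KO (limma adjusted p = 0.00616), with Rescue between at 0.447 and 0.417. Among exons of 5′ UTRs without a partner, 10 were higher and 9 lower in both pairs, and of exons with a start codon 1 was higher and 6 were lower. Of the exons without a class, 4 were higher and 10 lower.

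Where neither form has a premature stop, 17 exons were higher and 18 lower. Cers5, a ceramide synthase, had a 107-nt exon at 0.074 and 0.023 in WT, 0.527 and 0.540 in KO and 0.099 and 0.129 in Rescue (limma adjusted p = 1.91e-10). Its level did not pass the gene test (log2 0.16 ± 0.07). Magi3, a scaffold of cell junctions, had a 91-nt exon at 0.336 and 0.376 in WT, 0.902 and 0.867 in KO and 0.273 and 0.282 in Rescue (limma adjusted p = 6.28e-09). The 104-nt exon of the lipid flippase gene Atp11a fell from 0.889 and 0.786 to 0.606 and 0.419.

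**Figure D4:**
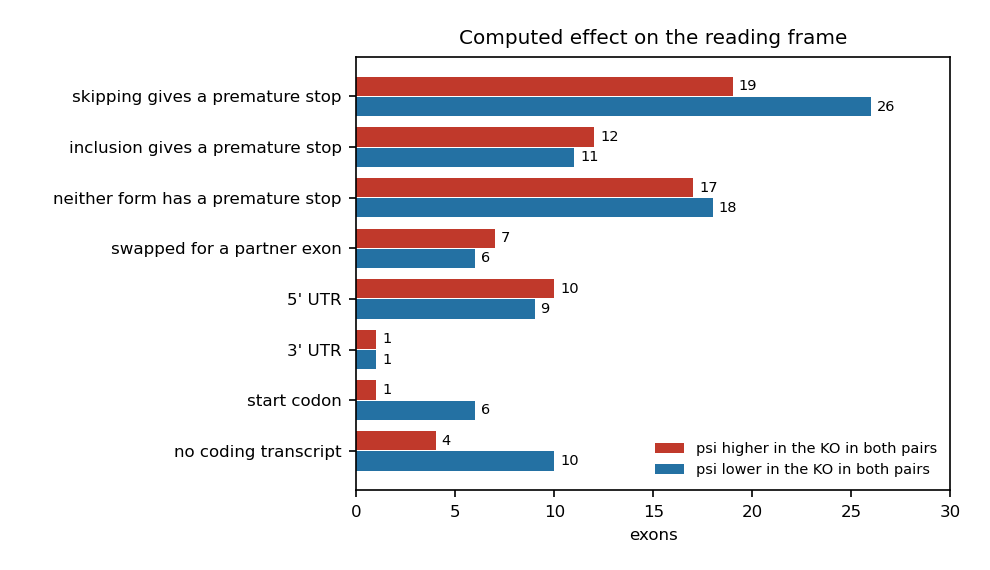
Number of frame-shifting exons whose psi was higher (red) or lower (blue) by 0.1 or more in KO than in WT in both pairs, by the computed effect of the exon on the reading frame. Skipping that gives a premature stop is the largest class in both directions, with 19 and 26 exons. It made up 26.8% of the exons higher and 29.9% of those lower, beside 56.8% of exons used in part and 77.0% of all.

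The levels of the host genes were read with edgeR from the expected counts, and 8372 of the 8597 genes were tested. In KO against WT 1660 host genes rose (19.8%, where 16.8% of all 12729 genes tested rose) and 1149 fell (13.7%, where 16.3% of all genes fell). The sum of 2809 became 650 without the library labelled Rescue_TNF, 664 without that labelled KO_TNF, 1302 without that labelled KO and 1707 without that labelled WT. Among the 18 tested hosts of exons higher in KO whose skipping gives a premature stop, 8 rose and 2 fell, with a median log2 change of 0.33, and 14 changes were positive. Besides Ptbp2, Gabbr1, Phkg2, Clcn6 and Dlg4, those that rose were Prpsap2, Ylpm1 and Crtc2, and Tctn1 and Tyk2 fell. Prpsap2, a regulator of phosphoribosyl pyrophosphate synthesis, had its 53-nt exon at 0.648 and 0.786 in WT and 0.872 and 0.902 in KO (limma adjusted p = 0.00294), and the gene rose by 0.77 ± 0.10. Junction reads put the Prpsap2 exon lower, at 0.455 and 0.682 in WT and 0.772 and 0.840 in KO. Among the 20 hosts of exons of this class that were lower in KO, 2 rose (Hpf1 and Alg6) and 2 fell (Nhlrc3 and Mlkl), the median was -0.07, and 7 were positive. Over all 12729 genes the median was -0.00. With 1 exon per gene, psi difference and host log2 change had a Pearson r of 0.60 and a Spearman rho of 0.55 over 36 genes of this class. In Rescue against KO, which shares the KO libraries, r was 0.13 and rho 0.22 over 47 genes of this class, and in Rescue against WT r was 0.32 and rho 0.27 over 18 genes. Those points share the same 6 libraries, and both measures of a gene draw on the same reads.

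Hosts of exons whose inclusion gives a premature stop did not show a common direction. Where the exon was higher in KO, 4 of 11 hosts rose, 4 fell and the median was -0.05. Where it was lower, 3 of 11 rose, 1 fell and the median was -0.03. Psi difference and host change had r = -0.28 (rho = -0.18) over 22 genes, and r was 0.25 over 32 genes of exons with no premature stop in either form. With a higher exon, Ttc7, Ap1m1, Desi2 and Mtfr1 rose and Slc38a6, Fmnl3 and Ppp2r1b were among those that fell. With a lower exon, Atat1, Meaf6 and Luc7l2 rose and Wsb1 fell. Atat1, the acetyltransferase of alpha-tubulin, had its 83-nt exon at 0.282 and 0.349 in WT and at 0.149 and 0.0825 in KO, and the gene rose by 1.18 ± 0.09 (edgeR adjusted p = 0.00277), though the exon did not pass the exon test.

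**Figure D5:**
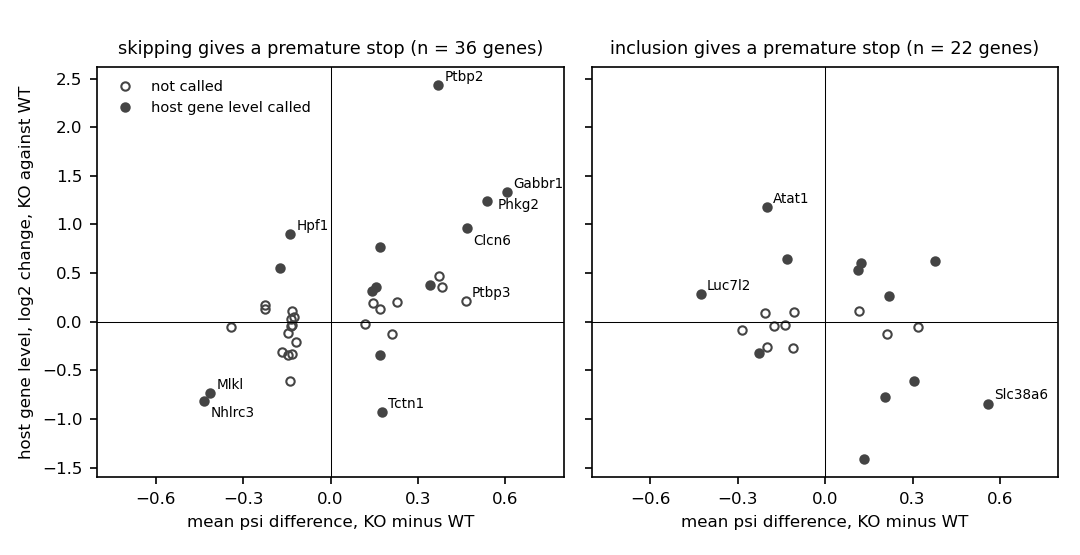
Mean psi difference between KO and WT (x axis) against the log2 change of the host gene (y axis), 1 exon per gene, for exons whose skipping (left, 36 genes) or inclusion (right, 22 genes) gives a premature stop. Filled points are host genes that passed the gene test. On the left, Ptbp2, Gabbr1, Phkg2 and Clcn6 lie at the upper right and Mlkl and Nhlrc3 at the lower left.

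Rescue against KO shares its KO libraries with the comparison above, so its values are not independent of it. The first form of the test called 2 exons higher (0.0214% of all nodes) and 2 lower (0.0375%), namely Tpm2 nodes 13 and 15 and Pkm nodes 33 and 31, with 657 at an unadjusted p under 0.05. With an offset of 0.05 these 4 calls became 0. Tpm2 node 15 fell by 0.542 in psi and node 13 rose by 0.557, past the WT values in both cases. Over nodes used in part, 39 exons rose and 25 fell (1.09% and 0.7% of those tested, beside 1.74% and 1.96% of all nodes). Pbrm1 node 9, Gabbr1, Magi3, Cers5, Ptbp3 and Dlg4 were among those that fell, and Nhlrc3, Mlkl, Tpm3 and Wsb1 among those that rose. In both pairs 88 exons were higher in Rescue (0.279% of all nodes) and 68 lower (0.308%). By junction reads 57 and 47 of them differed by 0.1 or more the same way. Another 34 differed in psi by 0.1 or more in opposite directions in the 2 pairs.

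Of host genes, 721 rose in Rescue against KO (9.79% of all genes rose) and 945 fell (10.6%), and 0 were called without either of the libraries labelled KO_TNF and Rescue_TNF. Where an exon whose inclusion gives a premature stop was lower in Rescue, 4 of 12 hosts rose, 1 fell, the median was 0.19 and 9 changes were positive. Slc38a6 was among them, with a log2 change of 0.65 (edgeR adjusted p = 0.0455). Where skipping gives a premature stop, 33 hosts of exons higher in Rescue had a median of 0.05, and 14 hosts of exons lower in Rescue one of -0.10. Gabbr1, whose exon was lower in both pairs, fell by 0.81 in log2. Ptbp2 fell by 1.51 and Phkg2 by 0.98, but their exons were not lower by 0.1 in both pairs. That of Ptbp2 was at 0.891 and 0.942 in Rescue beside 1.000 and 1.000 in KO. That of Phkg2 was at 0.553 and 1.000 in Rescue beside 0.954 and 0.979 in KO.

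Between Rescue and WT few exons were called. The first form of the test called 0 exons (0% of all nodes higher and 0.00535% lower), with 504 at an unadjusted p under 0.05. Over nodes used in part limma called 4 higher and 2 lower (0.223% and 0.178% of all nodes). Tpm2 node 13 (mean difference 0.168), Pvt1 node 22 (0.244), Rab28 node 11 (0.197) and Tecr node 34 (0.183) rose, and Tpm2 node 15 and Zdhhc20 node 20 (0.900 and 0.900 in WT, 0.807 and 0.723 in Rescue) fell. By junction reads the differences of Pvt1 and Tecr were smaller, with Pvt1 at 0.635 and 0.625 in WT and 0.769 and 0.746 in Rescue, and Tecr at 0.799 and 0.820 in WT and 0.891 and 0.942 in Rescue. Rab28, a small GTPase, was at 0.129 and 0.128 in WT, 0.328 and 0.439 in KO and 0.293 and 0.357 in Rescue, so Rescue lay with KO. In both pairs 31 exons were higher in Rescue than in WT (0.108%) and 35 lower (0.12%), and 42 differed by 0.1 or more in opposite directions. Host genes were called at 1151 higher and 858 lower (12.5% and 12.1% of all genes), with 0 without either Rescue library, 679 without the library labelled KO and 1092 without that labelled WT.

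With TNF few exons were called over the 3 lines. The first form of the test called 0 exons (0% of all nodes higher, 0% lower), with 291 at an unadjusted p under 0.05, and over nodes used in part limma called 1 higher and 2 lower (0.0297% and 0.0594% of all nodes). Wsb1 node 11 fell with TNF in every line, by 0.218 in WT, 0.235 in KO and 0.185 in Rescue (limma adjusted p = 3.09e-05). In every library far more junction reads entered this exon than left it. Tnip1, which binds the NF-kB inhibitor A20, had its 172-nt exon with the start codon at 0.932, 0.756 and 0.794 without TNF and at 0.620, 0.692 and 0.556 with it, in WT, KO and Rescue (limma adjusted p = 0.0414). The gene was at 66.5, 58.3 and 59.3 CPM without TNF and 328, 81.7 and 224 with it. Pvt1, a long non-coding RNA, had its 139-nt exon at 0.348, 0.636 and 0.704 without TNF and 0.721, 0.760 and 0.854 with it (limma adjusted p = 0.0273), while junction reads gave 0.635 and 0.625 in WT, with no rise there, 0.624 and 0.716 in KO and 0.769 and 0.746 in Rescue. In all 3 pairs 4 exons were higher with TNF (0.0152%) and 12 lower (0.0342%). A larger number, 26, differed by 0.1 or more in all 3 pairs but not in the same direction. Host genes of frame-shifting exons were called at 1031 higher and 866 lower (11.2% and 10.8% of all genes). Their sum of 1897 became 1 without either Rescue library, 598 without the library labelled KO and 611 without that labelled WT.

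With the groups that the labels give, no exon was called in any comparison by either form of the test (0% of all nodes in each direction), and no host gene by edgeR (0%). At an unadjusted p under 0.05 the first form had 357 exons in KO against WT, 338 in Rescue against KO, 339 in Rescue against WT and 200 for TNF, and edgeR had 9, 2, 24 and 251 host genes. DESeq2 called 1 host gene in Rescue against WT and 21 for TNF. In both labelled pairs 35 exons were higher in KO (0.0812%) and 28 lower (0.0799%), and 18 were higher in Rescue than in KO (0.0621%) and 24 lower (0.0977%). For Rescue against WT the counts were 16 (0.0457%) and 25 (0.0609%), and for TNF 6 (0.019%) and 3 (0.0101%). Exons that differed by 0.1 or more in every pair but in mixed directions numbered 81, 59, 153 and 60, in the same order.

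Gene lists were described by their counts. Of 28 genes listed as having Ptbp1-linked frame-shifting exons, 24 held 197 of the exons, 15 of them used in part. In KO against WT 7 were higher and 2 lower in both pairs, and 9 were called over nodes used in part. Of all nodes, 0.325% were higher and 0.288% lower in both pairs, and 2.81% and 1.9% of nodes used in part were called. In 55 splicing factor genes known for unproductive exons, 240 exons were measured, 39 were used in part and 4 were called in KO against WT. Srsf2, a serine and arginine rich splicing factor, had a 104-nt exon of its 3′ UTR at 0.426 and 0.246 in WT, 0.169 and 0.140 in KO and 0.273 and 0.266 in Rescue, and the exon fell (limma adjusted p = 0.000101). Junction reads gave 0.0451 and 0.0312 in WT and 0.0227 and 0.0187 in KO, far lower levels. A 136-nt 3′ UTR exon of Hnrnpa2b1 rose from 0.721 and 0.752 to 0.866 and 0.879 (limma adjusted p = 0.000104), and junction reads put it at 0.329 and 0.298 in WT and 0.552 and 0.540 in KO. Of 54 tested genes of this list 18 rose in KO and 1 fell, with a median log2 change of 0.15, where 16.8% of all genes rose, 16.3% fell and the median was -0.00.

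NMD itself acts through the Upf and Smg proteins, the exon junction complex and the release factors. The 23 genes on this list held 177 frame-shifting exons in 21 of them, of which 4 were used in part and 0 were called in any comparison by either form of the limma test. At an unadjusted p under 0.05 over nodes used in part there were 0 in KO against WT, 1 in Rescue against KO, 0 in Rescue against WT and 0 for TNF, and 1 was lower in KO in both pairs. Of 21 tested genes 6 rose in KO against WT and 2 fell, with a median of 0.10, beside 16.8% and 16.3% of all genes. Upf1, the helicase of NMD, was at 99.5 and 97.2 CPM in WT, 140 and 147 in KO and 117 and 122 in Rescue (log2 change 0.55 ± 0.07, edgeR adjusted p = 0.00732). Smg5 rose by 0.73, Rnps1 by 0.71 and Gspt1 by 0.49, and Upf2 fell by 0.26. Magohb, a copy of an exon junction core protein, was at 8.69 and 6.97 CPM in WT, 4.13 and 4.10 in KO and 0.0889 and 0.0495 in Rescue.

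The remaining lists held differing numbers of changed exons. The TNF and NF-kB list had 292 exons, 31 used in part and 1 called in KO against WT, while 26 of its 64 tested genes rose with TNF and 0 fell, beside 11.2% and 10.8% of all genes. The membrane traffic and cytoskeleton list had 759 exons, 35 of them used in part. In KO against WT 5 were higher and 4 lower in both pairs, Tpm1, Tpm2 and Tpm3 among them. The first form of the test called 4 (0.0803% of all nodes were called higher and 0.0375% lower) and the second 7. Of all nodes, 0.325% were higher and 0.288% lower in both pairs, and 2.81% and 1.9% of nodes used in part were called. The list of DNA repair, cell division and chromatin genes had 598 exons, 46 used in part, none of which differed by 0.1 or more in the same direction in both pairs of KO and WT, while 31 of its 70 tested genes rose in KO and 6 fell, beside 16.8% and 16.3% of all genes.

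Length and sequence were then described for the exons that differed beside all frame-shifting exons. Median length, of which the choice of exons used only the limits and the divisibility by 3, was 95 nt for both the 71 higher and the 87 lower exons, beside 116 nt for all. Pyrimidines made up a median of 50.8% of the higher and 47.2% of the lower exons, and 47.1% of all. TCTT was found in 45.7% of the higher, 24.7% of the lower and 37.4% of all exons with a sequence, without allowing for length. The motif CTCTCT, which can overlap itself, was found in 4.29%, 3.53% and 3.78%. The flanking introns, where Ptbp1 often binds, were not analysed here.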

How the data were processed

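RNA sequencing libraries were made with a SMARTER kit, per the labels' protocols. The authors deposited expected counts and TPM, made with RSEM per the submitters' processing notes (1 library had them by transcript, and these were added up by gene), a second set of estimated counts per gene, psi as a fraction with the estimated reads behind it, and reads per splice junction, per the file headers. The tool behind psi, the aligner and the build are not given in the sources used here. Of the measured cassette nodes, 99.9% shared an exon edge with GENCODE M21, so coordinates are GRCm38.

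Psi was tested with limma 3.58.1 (R 4.3.3) on log2((psi + 0.01)/(1 - psi + 0.01)) of nodes with 20 or more reads in all libraries, with line and TNF as additive factors, a trended prior and Benjamini-Hochberg adjustment over all nodes. Calls needed an adjusted p under 0.05 and a psi difference of 0.1. There are 2 residual degrees of freedom, from the inequality of an effect over the other factor, and the prior had 2.52 (31.4 over nodes used in part). Nothing says that libraries came from separate cultures. Genes were tested with edgeR 4.0.16 (quasi-likelihood, TMM, filterByExpr, rounded expected counts, 12729 of 21675 genes), in the same design. The value after ± is limma's standard error for exons, and for genes an approximate standard error, |log2 change|/√F of the quasi-likelihood test. Of the host symbols, 8382 of 8597 matched. Alternatives included DESeq2 1.42.0 and the deposited second quantification. TPM was not tested. Scripts were tested on simulated data. Named exons are the 12 called members with the largest difference each way in KO against WT and the 6 largest in other comparisons, plus called or widely varying exons of the first 2 gene lists and called exons with a host log2 change of 1 or more. The members and lists were chosen with earlier results of these data known. Results for some genes are not reported here.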

Additional observations from a re-analysis of the deposited data

Results flagged for a closer look

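For 2 exons picked out here, TNF moved psi in opposite directions in 2 lines. There was 1 library on each side, and the difference was not tested. Over all frame-shifting exons, 26 differed by 0.1 or more with TNF in all 3 lines but in mixed directions. For Slc38a6 node 9 psi changed by -0.162 with TNF in WT and by 0.244 in Rescue, a gap of 0.406, on 27 to 33 reads per library. By junction reads the share of this exon went from 0.245 to 0.455 in WT and from 0.216 to 0.286 in Rescue, the same direction in both. For Luc7l2 node 20 psi changed by -0.164 with TNF in WT and by 0.545 in KO, a gap of 0.709. By junction reads it went from 0.709 to 0.619 in WT and from 0.706 to 0.505 in KO, again the same direction in both. No group held enough libraries to look for single libraries that stand apart.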

How the results depend on the processing

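All counts here use the groups read from the file names unless stated. Exons called by limma in KO against WT numbered 6, and 0 with an offset of 0.05, 68 with untransformed psi, 12 without the other factor, 3 with a psi difference of 0.2 and 95 over nodes used in part. For Rescue against KO the 4 exons became 0, 55, 3, 2 and 64 in the same order. Rescue against WT had 0 and TNF 0 exons, and 7 and 2 with untransformed psi and 6 and 3 over nodes used in part. Leaving out each library in turn gave 0 to 0 exons in every comparison, in both forms of the test, each fit then having 1 residual degree of freedom. Without either Rescue library a fit has 1 library for that line, which is taken to vary like the others. Host genes called ranged over the left-out libraries from 650 to 2678 in KO against WT (2809 with all), 0 to 1733 in Rescue against KO (1666), 0 to 2943 in Rescue against WT (2009) and 1 to 2440 for TNF (1897). In the order of these comparisons, the host counts were 1707, 1689, 1092 and 611 without the library labelled WT, 1302, 1733, 679 and 598 without that labelled KO, 664, 0, 0 and 1 without that labelled KO_TNF, and 650, 0, 0 and 1 without that labelled Rescue_TNF. With the labels' groups DESeq2 called 1 host gene in Rescue against WT and 21 for TNF, where edgeR called 0. Psi differences reversed for 2 exons with small differences in KO against WT: Tnip1 node 13 (-0.052 with all) ranged from -0.1575 to 0.0535, with 0.0285 without the library labelled WT and 0.0535 without that labelled Rescue. Pbrm1 node 8 (-0.0185) ranged from -0.0505 to 0.0135, the latter without that labelled Rescue. The cause of these moves was not tested. No paired analysis was possible because each group holds 1 library, so that no replicate number is shared. Line and TNF are crossed in the model itself. Reads limit the psi values: 80 of the 158 exons that differed in both pairs of KO and WT had fewer than 50 reads in a library.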
